A study of Mus musculus with 9 samples.

Results

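The 10 genes described here encode 3 kinds of product of the immediate early response: AP-1 subunits (Fos, Fosb, Jun, Junb and Jund), the transcription factor Egr1 with the nuclear protein Ier2, and the negative regulators Dusp1, Zfp36 and Btg2. They were taken by symbol from the probe annotation of an Affymetrix whole-transcript array and are 10 of the 19938 genes measured. Each was read by 1 probe set, a group of short probes for one transcript. Bone marrow RNA of C57BL6 mice was compared in 3 groups of 3 arrays. Wild type whole marrow came from 3 mice, 1 per array. Wild type lineage-negative marrow came from 9 other mice, in pools of 3 per array, after a magnetic kit had removed cells with mature lineage markers. Marrow of 3 ERG transgenic mice with myeloid leukemia, 1 per array, was taken without depletion once the animals were ill, and these arrays are called leukemias 1, 2 and 3. All marrow came from the femur. The sources used here do not give the promoter or species of the transgene, nor the age or sex of the mice.

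Immediate early genes are switched on soon after a stimulus, without new protein synthesis, by kinase cascades that act on factors already bound at their promoters, such as SRF with its ETS-family partners and CREB. FOS proteins pair with JUN proteins through leucine zippers to form AP-1, which binds DNA and sets the next wave of transcription. Their mRNAs are short-lived, and the response is shut down by its own products, among them the kinase phosphatase DUSP1 and the mRNA decay factor ZFP36. In blood, AP-1 and EGR1 take part in monocytic differentiation, JUNB restrains myeloid growth and EGR1 helps to keep stem cells quiescent. The genes are also known to rise when tissue is handled, so values are given array by array.

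Promoter sequence is shown for Fos, Fosb, Jun and Dusp1, whose signal parted the leukemias most, and for Zfp36, whose groups differed between the wild type preparations. The sequences are from RefSeq (build GRCm38.p6), which listed promoters for 8 of the 10 genes, all but Egr1 and Ier2. Each run holds the 150 bases before the gene start, 5′ to 3′ on the strand of the gene, and capitals mark a motif match.
Fos, chr12:85473740-85473889, plus strand: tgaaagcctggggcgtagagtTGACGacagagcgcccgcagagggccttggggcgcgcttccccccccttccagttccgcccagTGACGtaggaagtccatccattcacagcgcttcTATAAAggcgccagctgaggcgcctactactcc
Fosb, chr7:19310046-19310195, minus strand: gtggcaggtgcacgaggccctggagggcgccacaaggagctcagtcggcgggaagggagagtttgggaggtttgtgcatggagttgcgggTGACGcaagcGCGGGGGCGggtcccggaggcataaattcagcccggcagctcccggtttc
Jun, chr4:95052223-95052372, minus strand: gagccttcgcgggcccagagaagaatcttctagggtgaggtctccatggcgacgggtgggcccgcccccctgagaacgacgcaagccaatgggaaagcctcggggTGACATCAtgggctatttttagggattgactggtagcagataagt
Dusp1, chr17:26508473-26508622, minus strand: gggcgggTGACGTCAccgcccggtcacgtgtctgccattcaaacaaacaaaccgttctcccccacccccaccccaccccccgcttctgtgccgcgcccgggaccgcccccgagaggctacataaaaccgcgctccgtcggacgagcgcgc
Zfp36, chr7:28379229-28379378, minus strand: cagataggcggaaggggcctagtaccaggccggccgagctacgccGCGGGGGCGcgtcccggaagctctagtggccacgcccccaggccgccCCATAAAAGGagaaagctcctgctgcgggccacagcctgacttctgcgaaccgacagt

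Both strands of the window from 250 bases before to 50 bases after the start were searched, so sites further upstream would be missed. The full cAMP response element TGACGTCA lay in the Btg2 window, 166 bases before the start, and in that of Dusp1, 143 bases before it, so in 2 of 8 member windows against 1.79% of all 32851 windows. Its core TGACG, which lies inside the full element, was found in 5 of 8 (Fos, Fosb, Junb, Dusp1 and Btg2), against 20.8% of all windows. The Jun window held TGACATCA, the site through which AP-1 acts on Jun itself, 45 bases before the start (3.62% of all windows). A CArG box, the sequence bound by SRF, lay 58 bases before the start of Zfp36 (1.63% of all windows), and the EGR site GCGGGGGCG lay in the Fosb and Zfp36 windows (2.91%). The AP-1 site TGACTCA, the EGR site GCGTGGGCG and the ETS site CCGGAAGT matched none of the 8 windows, against 5.2%, 0.612% and 3.89% of all windows. TATAAA lay 33 bases before the start of Fos and at the listed start of Junb, against 13.6% of all windows. These matches describe letters and say nothing of binding in these cells.

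Values below are log2 of the deposited intensity unless an intensity is named, and differences are log2 differences ± standard error with an adjusted p from limma (Benjamini-Hochberg over all 19938 genes, threshold 0.05). SD is over 3 arrays. Levels of different genes are not compared, because probes differ in brightness. The median intensity of the arrays ran from 32.3 to 34.4, and every group mean of the 10 genes lay above the median of all probe sets, 33.4, as did every single value except that of Fosb in leukemia 3. The mouse Erg probe set read 6.19 to 6.60 in the leukemias and 6.55 to 7.60 on wild type arrays, which checks nothing about a transgene of unstated species. Whole marrow array 2 was the only array with Xist at background (4.32, against 8.80 or more elsewhere) and carried the Y-linked Eif2s3y at 8.53. The 3 lineage-negative pools had both, with Eif2s3y at 8.18, 8.23 and 7.89, while the leukemias and whole marrow arrays 1 and 3 read 3.98 to 4.18. Summed intensity of 11 mature neutrophil markers was 38096.5 to 45263.3 in whole marrow, 15848.1 to 22988.5 in the leukemias and 749.4 to 2347.4 in the lineage-negative pools, where up to 3 of the 11 lay below the median intensity. In whole tissue, fewer cells of a type and less RNA per cell cannot be told apart.

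Fosb differed most of the 10 genes between individual leukemias (SD 2.00), followed by Jun. Fosb, which gives AP-1 a strong activation domain, read 7.95 and 8.55 in leukemias 1 and 2 and 4.82 in leukemia 3. On wild type arrays 1, 2 and 3 Fosb read 7.10, 7.02 and 7.75 in whole marrow and 8.78, 8.34 and 8.83 in the lineage-negative pools. Leukemia 3 was the lowest of the 9 arrays by a wide margin, at an intensity of 28.3 that lay below the median of all probe sets, while leukemias 1 and 2 lay above all 3 whole marrow arrays. With the 3 leukemias together, Fosb was not called against whole marrow (-0.18 ± 0.81, adjusted p = 0.911) or against lineage-negative marrow (-1.54 ± 0.81, adjusted p = 0.32). Without leukemia 3 it was higher than whole marrow by 0.96 ± 0.27 (adjusted p = 0.043).

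Fos itself, the founding FOS subunit, read 7.27 and 6.97 in leukemias 1 and 2 and 5.60 in leukemia 3. The whole marrow arrays read 7.66, 7.67 and 7.80, and the lineage-negative pools 7.26, 6.89 and 7.18. Every leukemia lay below every whole marrow array, and leukemia 3 lay below all others. The leukemia difference from whole marrow was -1.09 ± 0.36 (adjusted p = 0.0595) and missed the threshold. It passed at -0.59 ± 0.14 (adjusted p = 0.0224) without leukemia 3, and at -1.42 (adjusted p = 0.0222) without leukemia 1, so the size of the Fos difference depends on which leukemias are counted.

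**Figure D1:**
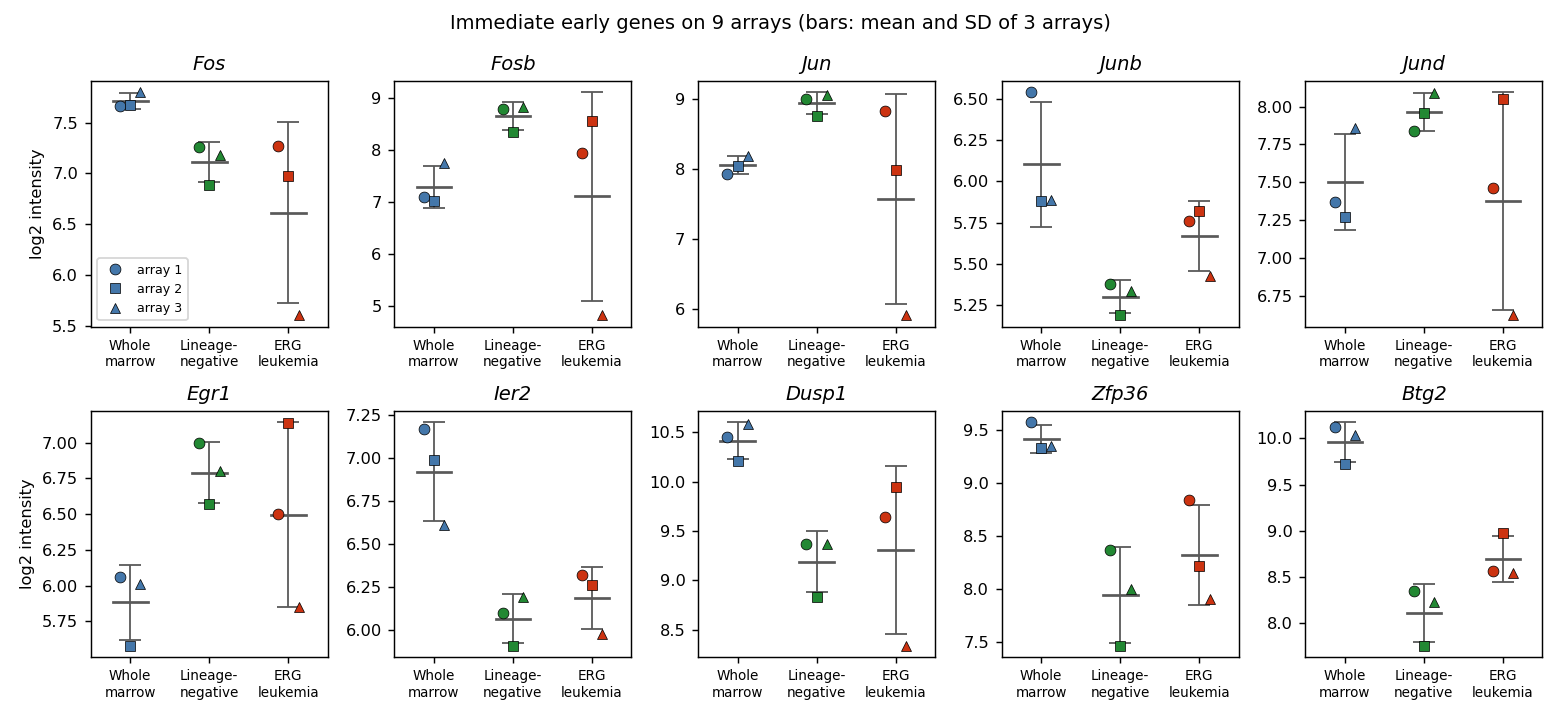
Log2 intensity (y axis) of each of the 10 genes on every array, by group (x axis). Points are arrays, marked by array number, and the horizontal line and bars give the mean and SD of 3 arrays. The triangle of leukemia 3 is the lowest leukemia point in all 10 panels, at 4.82 for Fosb and 5.91 for Jun.

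Among JUN subunits the same array stood apart. Jun, the main partner of FOS in AP-1, read 8.83 in leukemia 1, 7.99 in leukemia 2 and 5.91 in leukemia 3. It read 7.94, 8.05 and 8.19 in whole marrow and 9.00, 8.77 and 9.07 in the lineage-negative pools. The pools lay above every whole marrow array. Leukemia 1 lay within the range of the pools, leukemia 2 within that of whole marrow and leukemia 3 below both. Neither leukemia comparison of Jun was called (-0.48 ± 0.60 against whole marrow, adjusted p = 0.646, and -1.37 ± 0.60 against lineage-negative marrow, adjusted p = 0.218).

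Jund, the JUN subunit that most cells keep at a steady level, read 7.46, 8.05 and 6.62 in leukemias 1, 2 and 3. Whole marrow read 7.37, 7.27 and 7.86, and lineage-negative marrow 7.84, 7.96 and 8.09. The 3 groups overlapped apart from leukemia 3, and no comparison of Jund was called (differences between -0.59 and 0.47, each with a standard error of 0.32). Junb, which opposes JUN in growth control, varied least of the JUN genes among leukemias, at 5.76, 5.82 and 5.43. Its intensities there, 43.1 to 56.5, lay near the median of all probe sets, 33.4, so the spread may be understated. Junb read 6.54, 5.88 and 5.89 in whole marrow and 5.38, 5.19 and 5.34 in the pools. The leukemias lay between the wild type preparations without overlapping either. Against whole marrow the Junb difference was -0.44 ± 0.18 (adjusted p = 0.128) and against lineage-negative marrow 0.37 ± 0.18 (adjusted p = 0.291).

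Egr1, a zinc finger factor, was the only member with a positive leukemia difference from whole marrow. It read 6.50, 7.14 and 5.85 in leukemias 1, 2 and 3, against 6.06, 5.58 and 6.01 in whole marrow and 7.0, 6.57 and 6.80 in lineage-negative marrow. Leukemia 3 lay within the whole marrow range, and the other leukemias lay above it. The difference from whole marrow, 0.61 ± 0.29, was not called (adjusted p = 0.178) but passed without leukemia 3 (0.94 ± 0.23, adjusted p = 0.0243). Ier2, a nuclear immediate early protein, fell in the leukemias against whole marrow, 1.66-fold (-0.73 ± 0.16, adjusted p = 0.0101). It read 6.32, 6.26 and 5.98 in the leukemias, 7.17, 6.99 and 6.61 in whole marrow and 6.10, 5.91 and 6.19 in the pools. The leukemias and the pools overlapped in Ier2, and both lay below whole marrow.

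The 3 negative regulators were lower in leukemic than in whole marrow on every array. Btg2, an antiproliferative protein that p53 can induce, read 8.57, 8.98 and 8.54 in the leukemias, 10.12, 9.72 and 10.04 in whole marrow and 8.35, 7.76 and 8.23 in lineage-negative marrow. It fell 2.4-fold against whole marrow, from a mean intensity of 997 to 414.7 (-1.27 ± 0.19, adjusted p = 0.00223), and all alternatives kept this call. Btg2 was the member in which leukemia 3 stood apart least, at 0.04 below leukemia 1. Its leukemia arrays also lay above all pools, by 0.58 ± 0.19 (adjusted p = 0.0982), which was not called.

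Zfp36, which binds AU-rich mRNAs and speeds their decay, read 8.84, 8.22 and 7.91 in the leukemias, 9.57, 9.33 and 9.35 in whole marrow and 8.37, 7.47 and 8.0 in the pools. It fell 2.13-fold against whole marrow (-1.09 ± 0.27, adjusted p = 0.0186). That call was lost without leukemia 3 (-0.89, adjusted p = 0.0554) or without whole marrow array 1 (-1.01, adjusted p = 0.0658). Dusp1, which removes phosphate from p38 and JNK kinases, read 9.64, 9.95 and 8.34 in the leukemias, 10.45, 10.21 and 10.58 in whole marrow and 9.37, 8.83 and 9.37 in the pools. Leukemias 1 and 2 lay closer to whole marrow than leukemia 3 did. Its difference from whole marrow was -1.10 ± 0.37 (adjusted p = 0.0619), and without leukemia 3 it was -0.61 ± 0.20 (adjusted p = 0.0642). Without leukemia 2 it passed, at -1.42 (adjusted p = 0.0245).

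In all, 3 of the 10 genes fell and 0 rose in leukemic against whole marrow (Ier2, Zfp36 and Btg2). Over all genes 9.93% were called lower and 14.6% higher. The median difference of the 10 was -0.61, against -0.02 over all genes, and 9 of 10 differences were negative, against 54.7% of all genes. The groups did not overlap in 6 members, all lower, where 37.1% of all genes did not overlap and 17.7% were lower without overlap. Centring each array on its 75th percentile, or cyclic loess, raised the lower count to 5 by adding Fos (adjusted p = 0.026 and 0.041) and Dusp1 (0.0295 and 0.0419). Among all genes these scalings moved the share of calls that were higher from 59.4% to 47.7% and 47.2%. The part of cell make-up in these differences, such as the neutrophil marker sums given above, was not tested.

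Against lineage-negative marrow, the wild type preparation richer in progenitors, 0 of the 10 genes passed with limma in either direction. Of all genes 8.69% were called, 2.95% higher and 5.74% lower. The median difference was -0.09, with 5 members on each side of 0. Only Junb and Btg2 had groups that did not overlap, both higher in the leukemias, where 11.6% of all genes were higher without overlap. The intervals stay wide for the members that parted the leukemias: the 95% interval of Fosb ran from -3.39 to 0.31 and that of Jun from -2.73 to -0.01, while that of Ier2 ran from -0.23 to 0.48. Higher genes made up 34.0% of all calls in this comparison, and 44.0% and 44.9% under the same scalings.

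**Figure D2:**
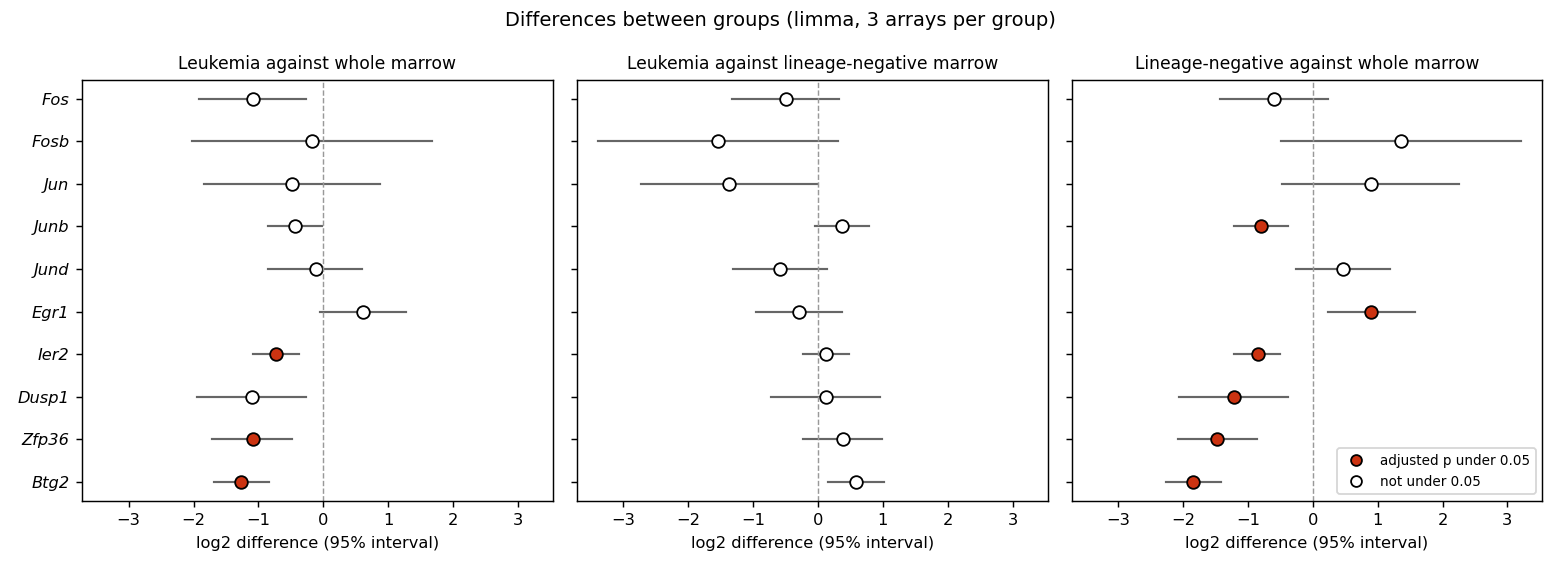
Log2 difference of each gene (x axis, with its 95% interval) in the 3 comparisons, from limma over all 9 arrays. Filled points have an adjusted p under 0.05: 3 genes in leukemia against whole marrow, 0 against lineage-negative marrow, and 6 between the wild type preparations, where Egr1 alone is higher.

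Between the wild type preparations the 10 genes went in both directions. Btg2 (3.6-fold, -1.85 ± 0.19, adjusted p = 0.000174), Zfp36 (2.77-fold, -1.47 ± 0.27, adjusted p = 0.00287), Dusp1 (2.33-fold, -1.22 ± 0.37, adjusted p = 0.0314), Ier2 (1.81-fold) and Junb (1.75-fold, -0.80 ± 0.18, adjusted p = 0.00883) were lower in lineage-negative than in whole marrow. Egr1 was 1.87-fold higher (0.90 ± 0.29, adjusted p = 0.0408). Fosb (1.36 ± 0.81, adjusted p = 0.245) and Jun (0.89 ± 0.60, adjusted p = 0.301) were higher on every pool than on every whole marrow array, and Fos lower (-0.60 ± 0.36, adjusted p = 0.251), without passing. The groups did not overlap in 9 of 10 members, 3 higher and 6 lower, where 50% of all genes did not overlap, 26.6% being higher and 23.4% lower. Of all genes 34.7% were called, 21.7% higher and 13% lower.

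The wide standard errors of Fosb, Jun and Fos in that wild type comparison came with the leukemia arrays, which share the spread estimate. With only the wild type arrays in the fit, the standard error of Fosb was 0.22 and that of Jun 0.11, and both were called higher (adjusted p = 0.00266 and 0.000903). Fos was then called lower (adjusted p = 0.00524), which made 3 members higher and 6 lower of 10, with 35.8% of all genes called. Leaving out leukemia 3 alone gave the same counts, with Fosb at an adjusted p of 0.00388, Jun at 0.0112 and Fos at 0.00735. The Egr1 call was the least steady: it was lost under 75th percentile centring (0.78, adjusted p = 0.0509), after cyclic loess (0.68, adjusted p = 0.13), with an offset of 16 (0.75, adjusted p = 0.0552), and without any single wild type array or leukemia 1. The Dusp1 call was lost without any single wild type array (-1.32 to -1.04). Centring on the 75th percentile moved the median of all genes by -0.124 in this comparison, and the share of calls that were higher moved from 62.6% to 50.3%.

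Leukemia 3 was the lowest of the 3 leukemias in 10 of 10 genes, although it was the lowest leukemia in 28.9% of all genes. Its distance below the nearer of the other leukemias was 3.13 for Fosb (8.74-fold) and 2.08 for Jun (4.22-fold), which ranked 1 and 2 among the 19938 genes. Because Fosb was below the median intensity in leukemia 3, its distance may be understated. Fos, at 1.37, ranked 6 and Dusp1, at 1.30, ranked 8. In 15 genes of the array this distance exceeded 1, and 4 of these were members. Jund (0.84), Egr1 (0.65), Junb (0.33), Zfp36 (0.30) and Ier2 (0.29) followed, at ranks 28 to 604, and Btg2 (0.04) ranked 4255. Fos, Fosb, Jun, Jund and Dusp1 were lower in leukemia 3 than on any of the 8 other arrays.

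**Figure D3:**
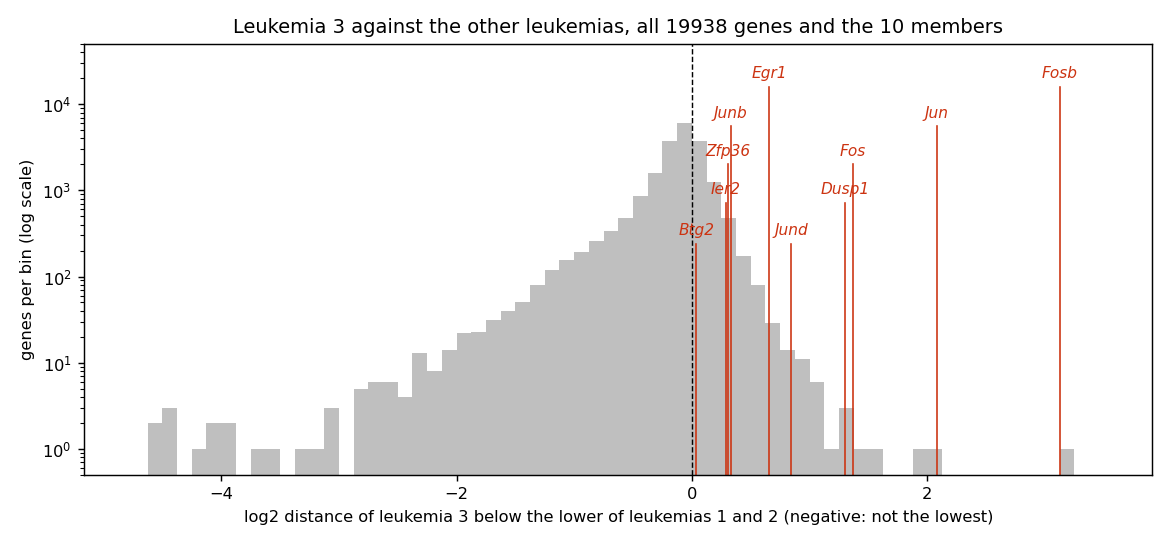
Number of genes (y axis, log scale) by the log2 distance of leukemia 3 below the lower of leukemias 1 and 2 (x axis, negative where leukemia 3 is not the lowest). Grey bars are all 19938 genes and red lines the 10 immediate early genes, with Fosb at 3.13 and Jun at 2.08 at the right end.

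The spread among leukemias was correspondingly wide. The median SD of the 10 genes was 0.68 in the leukemias, 0.24 in whole marrow and 0.21 in the pools. Over all genes it was 0.127, 0.127 and 0.101. Over genes with a mean above the median intensity, as the 10 have, it was 0.189, 0.168 and 0.144. In the leukemias 6 of the 10 genes (Fos, Fosb, Jun, Jund, Egr1 and Dusp1) had an SD in the top 5% of genes, above 0.55, with Fosb at 2.00 and Jun at 1.5. In each wild type group 1 gene was in the top 5%, Fosb in whole marrow and Zfp36 in the pools. Lineage-negative pool 2 was the lowest pool in 9 of the 10 genes, Jund excepted, against 31.3% of all genes, but by smaller steps: none lay over 1 below both other pools. Whole marrow array 2 was the lowest in 7 of 10, against 28.8% of all genes.

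Deviations from the group means ran together on the 9 arrays, but less so without leukemia 3. Over the 45 pairs of members, Pearson's r of these deviations on 9 arrays had a median of 0.61, from 0.13 to 0.99, the highest being Fos with Jun. Without leukemia 3 the median was 0.31 (from -0.58 to 0.95), with 29 of 45 pairs above 0. On the 6 wild type arrays alone it was 0.55 (from -0.68 to 0.94), with 38 above 0. Pairs of other genes were not compared. Array scale and cell make-up are shared by all points. Other values of leukemia 3 did not all move the same way: its neutrophil marker sum of 21717.1 lay between those of leukemias 1 (22988.5) and 2 (15848.1), its 9 measured heat shock genes summed to 9591, below 9867.9 and 10992.8. Its 7 stem and progenitor markers summed to 1037, below 1902.2 and 1724.1, but without Gata2 the other 6 summed to 443, against 560 in leukemia 1 and 417 in leukemia 2. Its 9 monocyte and macrophage markers summed to 2878.2, above 2652.5 and 1011.2. The part of tissue handling, and of these cell markers, in the low values of leukemia 3 was not tested.

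**Figure D4:**
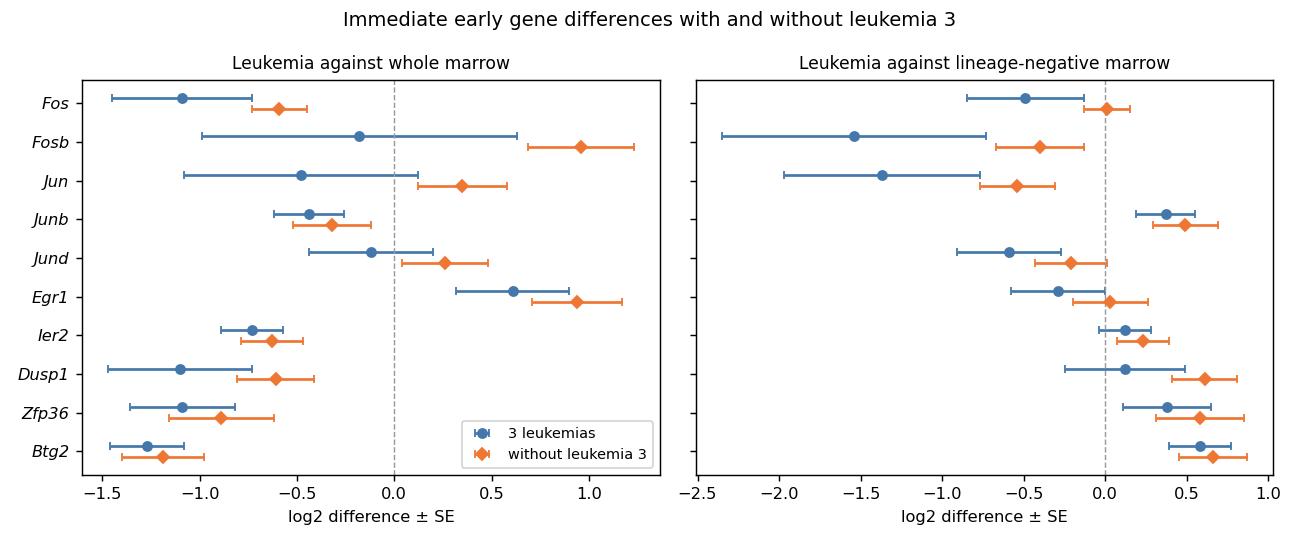
Log2 difference ± standard error (x axis) of each gene in leukemia against whole marrow (left) and against lineage-negative marrow (right), with 3 leukemias (circles) and without leukemia 3 (diamonds). Without leukemia 3, Fosb moves from -0.18 to 0.96 and Jun from -0.48 to 0.35 against whole marrow, while Btg2 stays near -1.2.

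Related genes, from lists drawn up with earlier results of these data known, were read beside the 10. For reference, 9.93% of all genes were called lower and 14.6% higher in leukemic against whole marrow. The shares were 5.74% and 2.95% against lineage-negative marrow, and 13% and 21.7% in lineage-negative against whole marrow. Of 13 further AP-1 family genes measured (14 listed), 2 fell and 1 rose in leukemic against whole marrow. Fosl2, a FOS relative without the strong activation domain, fell by 1.46 ± 0.17 (adjusted p = 0.00107) and Jdp2, a repressive JUN partner, by 1.19 ± 0.11 (adjusted p = 0.000538), while the small MAF gene Mafk rose by 0.72 ± 0.19 (adjusted p = 0.0235). Against lineage-negative marrow Atf3, a stress-induced AP-1 partner, was higher by 1.88 ± 0.32 (adjusted p = 0.01) and Jdp2 by 0.42 ± 0.11. Atf3 was also the AP-1 relative with the largest wild type difference (-2.44 ± 0.32 in lineage-negative against whole marrow). Its mean intensity of 32.7 in the pools lay below the median of all probe sets, so both Atf3 sizes may be understated. In lineage-negative against whole marrow 5 of the 13 fell and 0 rose, with Fosl2 at -2.04 ± 0.17 and Jdp2 at -1.61 ± 0.11.

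Of 31 other immediate early genes, 10 fell and 3 rose in leukemic against whole marrow (median -0.33). Trib1, a pseudokinase that directs protein degradation in myeloid cells, fell most (-1.90 ± 0.18, adjusted p = 0.000538), and Myc (1.41 ± 0.11), Ppp1r15a (1.14 ± 0.31) and Per1 (1.05 ± 0.21) rose. Between the wild type preparations 15 fell and 3 rose, led by Trib1 (-2.19 ± 0.18), Btg1 (-1.84 ± 0.13) and Myc (1.71 ± 0.11). Gadd45b (1.45 ± 0.23, adjusted p = 0.00858), Nfkbia (0.80 ± 0.18) and Btg1 (0.74 ± 0.13), with Klf6, were the 4 that were higher in the leukemias than in lineage-negative marrow, and 0 were lower. The low values of leukemia 3 were not shared across this list: 10 of 31 were lowest there among the leukemias, against 28.9% of all genes. The distance exceeded 1 in 0 of them, but in only 0.0752% of all genes. Nr4a1, an orphan receptor and immediate early gene chosen after its values were seen, read 7.43, 5.93 and 7.68 in leukemias 1, 2 and 3.

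Among 19 measured genes (24 listed) for the kinases and nuclear activators that act on immediate early promoters, 6 fell and 1 rose in leukemic against whole marrow. Mrtfa, the SRF coactivator, fell by 1.17 ± 0.22 (adjusted p = 0.00625) and Rps6ka3, a kinase downstream of ERK, by 0.65 ± 0.19, while Map2k3, a p38 activator, rose by 0.64 ± 0.20. Mapk9, which encodes JNK2, was lower than in lineage-negative marrow (-0.90 ± 0.16, adjusted p = 0.0123). It was the only call of 19 there, where 8.69% of all genes were called. In lineage-negative against whole marrow 4 fell and 2 rose, with Mrtfa at -1.26 ± 0.22, Mapk9 at 1.22 ± 0.16 and Map2k1 at -0.95 ± 0.22. Srf itself was not called in any comparison (differences from -0.09 to 0.10).

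Of 9 heat shock genes measured (11 listed), which tissue handling is also known to raise, 6 were higher and 0 lower in lineage-negative than in whole marrow, with Hsph1 at 1.66 ± 0.45 (adjusted p = 0.0191), Hspd1 at 1.40 ± 0.15 and Hspa1a at 1.36 ± 0.40 (adjusted p = 0.0283). In the leukemias 2 of 9 rose against whole marrow, Hspd1 by 0.70 ± 0.15 and Hsp90aa1 by 0.43 ± 0.12. Against the pools 3 were lower, Hspa1a by -1.83 ± 0.40 (adjusted p = 0.0277), Hspd1 by -0.70 ± 0.15 and Hspe1 by -0.60 ± 0.12. Inducible Hspa1a read 8.01, 8.10 and 7.42 in the pools, 6.18, 6.13 and 7.14 in whole marrow and 5.99, 6.78 and 5.27 in the leukemias, so it was lowest in leukemia 3. The list as a whole did not share this: 3 of the 9 were lowest in leukemia 3 among the leukemias, against 28.9% of all genes. The distance exceeded 1 in 0 of the 9, but in only 0.0752% of all genes. The pools had passed through lineage depletion before RNA extraction, a step the other groups did not have. Fosb, Jun and Egr1 were higher on every pool than on every whole marrow array, as were 26.6% of all genes. Lower on every pool were 6 of the 10 members, against 23.4% of all genes. By the test 15 of the 31 other immediate early genes fell and 3 rose, against 13% and 21.7% of all genes. The effect of the depletion step and the choice of cells cannot be told apart, so the part of handling in these counts was not tested.

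**Figure D5:**
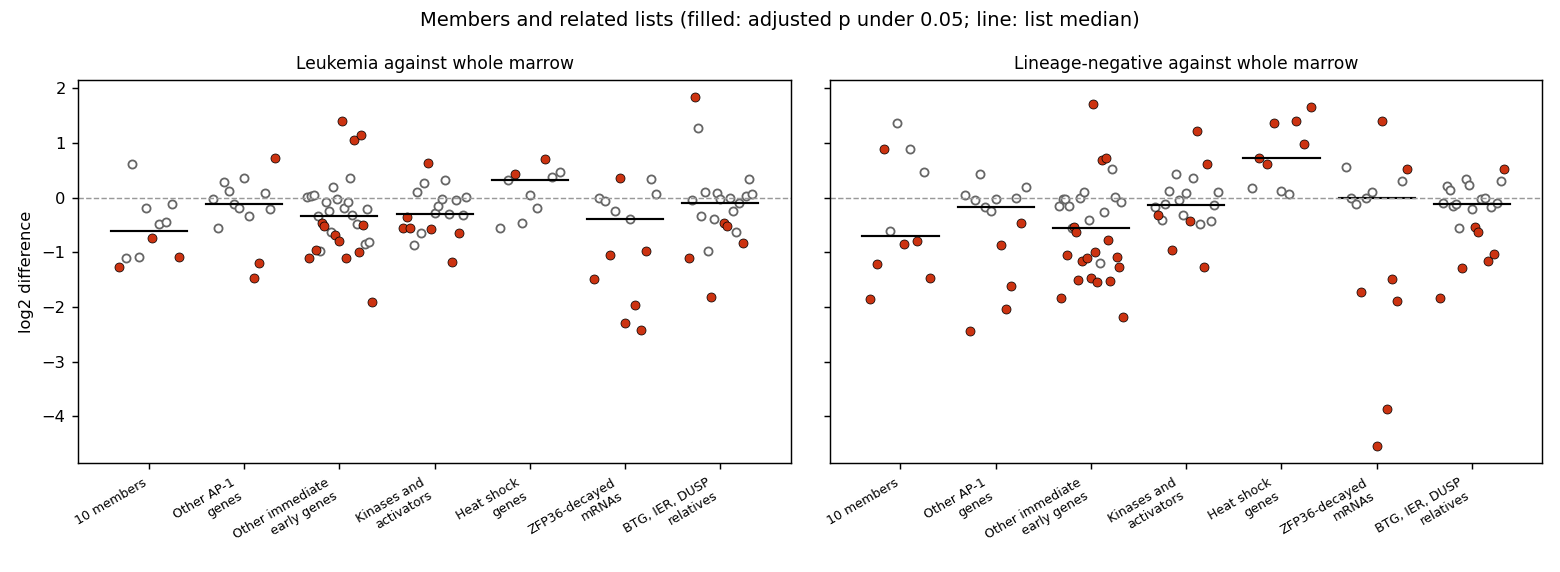
Log2 difference (y axis) of the 10 genes and of 6 related lists in leukemia against whole marrow (left) and lineage-negative against whole marrow (right). Each point is a gene, filled where the adjusted p is under 0.05, and the line is the list median: -0.61 and -0.70 for the 10 genes, 0.32 and 0.72 for heat shock genes.

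Of 13 mRNAs known to be decayed by ZFP36 or its relatives, 6 fell and 1 rose in leukemic against whole marrow (median -0.38), where Zfp36 was also lower. Ptgs2, the inducible prostaglandin synthase, fell by 2.42 ± 0.34 (adjusted p = 0.00187), Il1b by 2.3 ± 0.53 (adjusted p = 0.0144) and Plaur, the urokinase receptor, by 1.97 ± 0.21 (adjusted p = 0.00081). Relative to the pools, Il1b (2.24 ± 0.53) and Plaur (1.89 ± 0.21) were higher and Ccl3 (-2.05 ± 0.35) and Il6 lower. Between the wild type preparations 5 fell and 2 rose, with Il1b at -4.54 ± 0.53, Plaur at -3.86 ± 0.21 and Tnf at -1.89 ± 0.27. Il1b had a mean intensity of 24.2 in the pools, below the median of all probe sets, so its differences from them may be understated. Mature myeloid cells express several of these genes. Some, among them Il1b and Plaur, had the order of the neutrophil marker sums given above, highest in whole marrow and lowest in the pools. Others did not: by group mean Ptgs2 was lowest in the leukemias, and Ccl3 and Il6 were highest in the pools. The part of those cells in the differences was not tested.

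Of 21 measured relatives of Btg2, Ier2, Dusp1, Zfp36 and Egr1 (22 listed, some also in the lists above), 5 fell and 1 rose in leukemic against whole marrow. The JNK and p38 phosphatase gene Dusp10 rose by 1.84 ± 0.44 (adjusted p = 0.0163), while the ERK phosphatase gene Dusp6 fell by 1.81 ± 0.22 (adjusted p = 0.00109) and Btg1, the nearest relative of Btg2, by 1.10 ± 0.13 (adjusted p = 0.00119). Btg1 was the only call of 21 against lineage-negative marrow (0.74 ± 0.13, adjusted p = 0.0142), where 8.69% of all genes were called. In lineage-negative against whole marrow 6 fell and 1 rose, led by Btg1, Dusp6 (-1.29 ± 0.22) and Ier5 (-1.16 ± 0.21).

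By Pearson's r over the 9 arrays among 10275 genes brighter than the median, the nearest non-member patterns differed between members. Btg2 ran closest to Mdm2 (r = 0.997), Ep300 (0.994) and Trp53inp1 (0.992), Zfp36 to Fnbp1 (0.984), and Dusp1 to Pnrc1 (0.981) and Tob1 (0.955). Both Fosb (0.980) and Jund (0.974) ran closest to Arid1a, and Flcn was second to both Fosb (0.946) and Jun (0.936). Arid1a, a chromatin remodeller subunit, read 9.20, 9.29 and 8.90 in leukemias 1, 2 and 3 and between 9.07 and 9.33 on wild type arrays, a far smaller range than that of Fosb. Fos ran closest to Cep350 (0.953), Egr1 to Ercc6 (0.954), Junb to Fam209 (0.967) and Ier2 to Zfyve27 (0.979). All 9 arrays share normalization and group structure, and these values are descriptions.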

How the data were processed

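RNA of 9 bone marrow samples was read on Affymetrix whole-transcript arrays. The authors deposited intensity values on a linear scale, made with RMA and Partek per the submitters' processing notes; the sources used here give neither versions nor a genome build. Values were log2-transformed with no further normalization. Of 28853 probe sets, 21789 had 1 gene symbol (1621 had several, 5443 were unnamed), with symbols updated by Entrez identifier (19856 of 19938 genes matched a GRCm38.p6 gene table); for 999 genes with several, the probe set with the highest mean stood for the gene. All 9 arrays were fitted by group with limma 3.58.1 in R 4.3.3 (lmFit, eBayes without trend, 6 residual and 2.62 prior degrees of freedom, two-sided, Benjamini-Hochberg, threshold 0.05), a script tested on simulated data. No dim genes were filtered. With 3 arrays per group, their number limits the precision, and each pool averages 3 mice.

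The 10 members and all lists were chosen with earlier results of these data known. Named genes are the 10 members, the 3 largest calls per related list and comparison, and the 3 nearest genes by correlation, of which only some are printed. Replicate numbers of the wild type groups come from different mice and do not pair them. Leukemias are numbered in accession order. Alternatives were 2 scalings, a brightness filter, fits of 2 groups, a trended robust spread, averaged probe sets, an offset of 16, each array left out, and a replicate block. Figures used matplotlib 3.10.9.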

Additional observations from a re-analysis of the deposited data

How the results depend on the processing

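Of 490 single-gene values under the alternatives, 442 kept their direction and side of the threshold, 18 lost a call, 20 gained one and 10 changed sign. No sign changed under a scaling or a filter. Without single arrays, the difference from whole marrow ran from -0.91 to 0.96 for Fosb, -1.11 to 0.35 for Jun and -0.46 to 0.26 for Jund, and that from lineage-negative marrow from -0.82 to 0.01 for Fos, -0.61 to 0.03 for Egr1 and -0.20 to 0.61 for Dusp1. The count of lower members against whole marrow was 5 with 75th percentile centring, cyclic loess or bright genes only (2 to 4 without single arrays), and that of higher members 0 to 2, reaching 2 without leukemia 3. Between the wild type preparations, higher members numbered 0 with either scaling or the offset, 3 with only those groups, 4 with the replicate block and 0 to 3 without single arrays, and lower members 4 to 6. Over all genes, counts without single arrays were 1248 to 1915 lower against whole marrow (lowest without whole marrow array 1), and 268 to 827 higher and 490 to 1174 lower against lineage-negative marrow. The replicate block rests on shared numbers only: deviations of same-numbered wild type arrays correlated at 0.312, -0.009 and -0.009, and it changed 4346 higher and 2547 lower genes little from 4328 and 2587. The cause of these changes was not tested beyond the arrays left out.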

Other observations

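Other genes were lower in leukemia 3 than in both other leukemias, and some were also lower there than on all wild type arrays. Arid1a, for example, read 8.90 in leukemia 3, against 9.07 to 9.33 on wild type arrays. Those named here were picked after their values were seen. Of the 12 genes with the largest distance of leukemia 3 below both other leukemias, 4 were members. The non-members among the 12 were not lower in leukemia 3 than on all wild type arrays. Gata2, the stem and progenitor factor, read 10.39, 10.35 and 9.21 in leukemias 1, 2 and 3, still above the 6.56 to 7.20 of whole marrow. Lat, a signalling adaptor of T cells, mast cells and megakaryocytes, read 8.65, 8.48 and 7.13, and Nbea, a vesicle trafficking gene, 7.63, 7.24 and 5.27, each above its whole marrow values (at most 6.24 and 4.43). Retnlg, a neutrophil gene, read 11.15, 10.53 and 9.43, below the 11.80 to 12.14 of whole marrow. Fosb, Jun, Fos and Dusp1 thus differed from Gata2, Lat and Nbea in that leukemia 3 lay below whole marrow as well. Retnlg and Arid1a shared this, so it was not particular to the members.

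Leukemia 2 stood over 1 below both others in 369 genes, 1.85% of all genes. None of them were members, which at so small a share says little about the members.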
